A study of Mus musculus with 76 samples.

Results

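The livers and the visceral white adipose tissue (WAT) of female Fnip2T/T mice with free access to food were compared gene by gene. The libraries were chosen by the tissue and genotype in their labels, and they were 10 of the 19 in the study. The 5 livers came from mice 607, 608, 657, 658 and 659 and the 5 WAT samples from mice 607, 608, 609, 657 and 658, so that 4 of the 6 mice gave both tissues. Fnip2T/T mice keep the ancestral T at a site in the 3′ untranslated region of Fnip2, and the Fnip2C/C mice carry an engineered C there and a second substitution that disrupts the PAM, the motif the editing nuclease needs. Both were kept on a C57BL/6 background. The 5 Fnip2C/C livers and 4 Fnip2C/C WAT libraries were used only to test whether the tissue difference depended on genotype. No age is given by the labels, and nothing in them separates the tissue from the preparation of its RNA, since the input was 250 ng of RNA for a liver library and 500 ng for one of WAT.

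Sequencing started near the poly(A) tail, and a transcript gave about 1 read whatever its length. The reads assigned to genes ranged from 5583041 to 7523200 (median 6805981) per liver and from 4336514 to 6277644 (median 4724912) per WAT library. Levels are given as CPM, that is, a library's reads scaled to a total of 1000000 over the 15439 genes that both deposited tables list once, as mean ± SD over the 5 libraries of a tissue. The comparison covered the 9163 genes with a mean of at least 10 CPM in either tissue. A difference is liver minus WAT on the log2(CPM + 1) scale, with its standard error, so that positive values are higher in liver, and it understates the change of genes near 0 in 1 tissue. Genes were called at a Benjamini-Hochberg adjusted p under 0.05 in limma. Both tissues hold many cell types, and in such bulk samples a change in the share of a cell type and a change in the RNA per cell cannot be told apart.

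The liver makes most plasma proteins, clears ammonia through the urea cycle, makes bile acids and glucose, and burns fatty acids to ketone bodies. White fat takes up fatty acids and glucose, stores them as triglyceride in a single large lipid droplet per adipocyte, releases them by lipolysis, and secretes hormones such as leptin and adiponectin. FNIP2 and FNIP1 are partners of folliculin, and their complex acts on the Rag GTPases that bring mTORC1, a kinase that couples nutrients to growth, to the lysosome.

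The libraries held the defining genes of the tissues on their labels. Alb (albumin) was at 68033, 89644, 65462, 78404 and 73540 CPM in the livers of mice 607, 608, 657, 658 and 659, and at 34.6, 38.98, 53.8, 39.04 and 28.5 CPM in the WAT of mice 607, 608, 609, 657 and 658. Cidec, which enlarges the lipid droplets of fat cells, was at 0.293, 0.494, 0.998, 0.179 and 0.322 CPM in the livers and at 2239, 2103, 2786, 1824 and 1327 CPM in WAT, in the same order of mice. Neither gene overlapped between the tissues. The 6 hepatocyte markers that could be tested were all higher in liver (median difference 10.48) and the 6 adipocyte markers all higher in WAT (-8.14), against shares of 20.7% and 58.3% of all genes tested that were called in these directions. The other 4 markers of each list were listed in 1 table only. Adipoq (adiponectin), Retn (resistin), Plin1 (perilipin 1) and Lep (leptin) had no entry in the liver table, and Fgb, Cps1, Hnf4a and Tat had none in the WAT table.

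Other cell types were present in both tissues. The WAT of mouse 609 held skeletal muscle genes: the 14 markers summed to 969.6 CPM there (over all genes of the WAT table) and to at most 76.3 in the other 4 WAT libraries, and each of the 14 was highest in that library. Myh4, a fast myosin heavy chain, was at 145 CPM in mouse 609 and at no more than 0.598 in the others. Without that library 7222 genes were called in place of 7246. The WAT of mouse 658 had the most Ucp1 and Cidea, genes of heat-producing fat, with 17.1, 5.29, 5.73, 10.4 and 239 CPM of Ucp1 in mice 607, 608, 609, 657 and 658. Without both libraries, a choice made after the data were seen, 7122 genes were called. Of the tested genes named here, C1qb, Mt2, mt-Nd2 and mt-Nd4 lost their call without the WAT of mouse 609 and Acacb gained one, and without both libraries C1qb, Mt1 and Mt2 lost theirs and Hadha gained one. The WAT of mice 607 and 658 also held epithelial genes that were far lower in the other WAT libraries. Upk3a was at 120, 0.212, 0.458, 1.15 and 112 CPM in mice 607, 608, 609, 657 and 658 (over all genes of the WAT table). Krt5 was at 47.6, 0.423, 0.229, 0.461 and 34.9 CPM in the same order. The bile duct epithelium list summed to 175, 24.1, 18.8, 48.0 and 165 CPM. Their origin was not tested, and these libraries were not left out together.

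**Figure D1:**
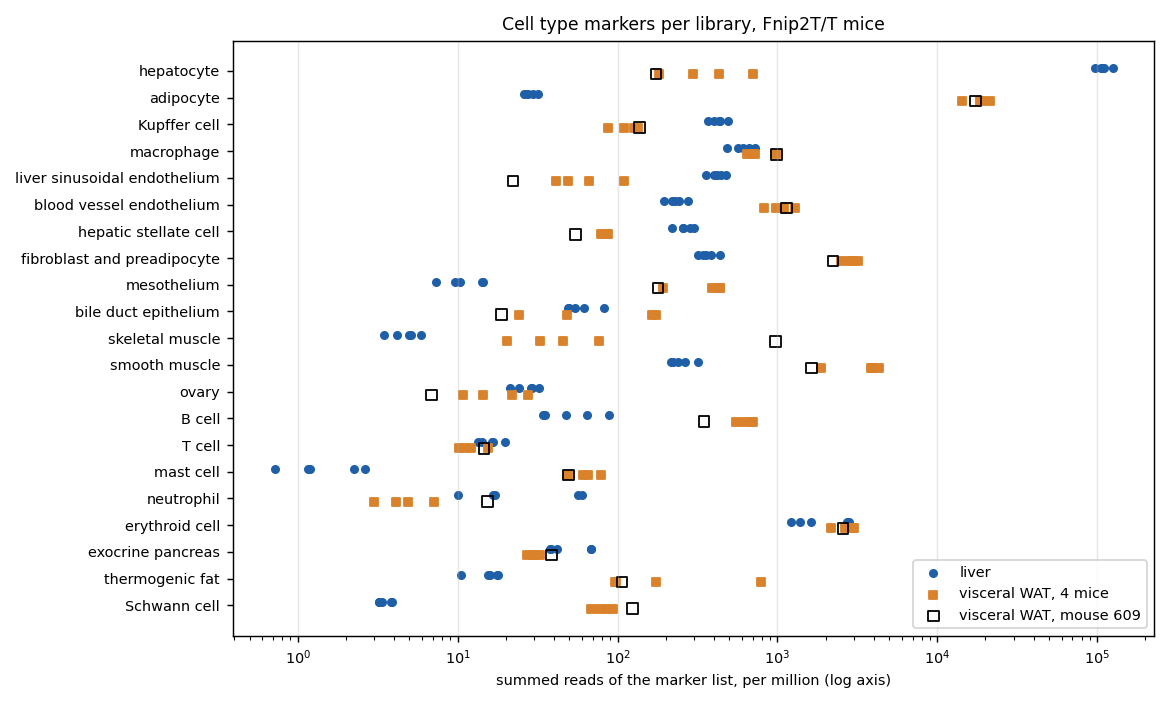
Summed reads of each cell type marker list per library, in CPM over the whole table of the tissue (log axis), with blue circles for the 5 livers, orange squares for 4 WAT libraries and an open square for the WAT of mouse 609. Hepatocyte and adipocyte sums separate the tissues, macrophage sums overlap, and the skeletal muscle sum of mouse 609, at 969.6, stands apart from the other WAT libraries.

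Most genes differed between the tissues. Of the genes tested, 7246 (79.1%) were called, 1901 (20.7%) higher in liver and 5345 (58.3%) higher in WAT. The 5 livers lay above all 5 WAT libraries for 15.9% of the genes and below them for 50.4%. With a difference of at least 2 as well, 694 (7.57%) were higher in liver and 1473 (16.1%) in WAT. The split between directions depended on the scaling. The median difference over all genes tested was -0.65, and TMM factors, a scaling that sets the bulk of genes equal between libraries, moved it to -0.01, so that a gene with an ordinary difference counted as higher in WAT on the CPM scale. Under TMM factors 3402 genes were higher in liver and 3419 higher in WAT, and liver held 49.9% of the calls instead of 26.2%. Over 7 scalings, 18.6% of the genes were called higher in liver in every case and 35.1% higher in WAT in every case, while 2323 of the called genes changed their call or direction under at least 1 of them. All of the 694 large differences towards liver and 1470 of the 1473 towards WAT kept their call. Differences below are therefore read against the median of -0.65, and a gene or list that changed direction with the scaling is named as such.

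Liver reads were concentrated in few genes. The 67 most read genes of liver held 50% of the shared reads and its 10 most read genes 32.3%, while WAT needed 221 genes for 50% and its 10 most read held 26.1%. The 10 in liver were mt-Nd4, Alb, Apoe, mt-Cytb, Ahsg, Ttr, mt-Nd1, Trf, mt-Nd2 and Apoa1, that is, 6 genes of secreted plasma or lipoprotein components and 4 of the mitochondrial genome. The 10 in WAT were mt-Nd4, mt-Rnr2, Car3, Scd1, Cfd, mt-Nd1, mt-Rnr1, Fasn, mt-Cytb and mt-Nd2. Car3, a carbonic anhydrase abundant in fat, was at 40952, 38988, 68748, 28850 and 28369 CPM in WAT and at 8736, 4007, 5135, 10895 and 5496 CPM in liver, a difference of -2.61 ± 0.30 (adjusted p = 1.68e-06). The mitochondrial ribosomal RNAs mt-Rnr2 and mt-Rnr1 were both higher in WAT, by -2.87 ± 0.32 and -2.06 ± 0.29. Their WAT levels ranged from 29509 to 87031 CPM for mt-Rnr2 and from 7461 to 24862 CPM for mt-Rnr1. Of the 100 most read genes of each tissue, 32 were shared.

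The largest differences towards liver were mostly those of secreted proteins. The 12 largest among called genes with separate libraries and at least 100 CPM in the higher tissue included those of Ahsg, Ttr, Apoa1, Apoa2, Serpina1b, Serpina1d, Hpx, Serpina3k, Alb, Gnmt and Mug1. Ahsg, which encodes fetuin-A, was at 21363, 22820, 26989, 20448 and 20790 CPM in the livers and at 0.611, 0, 1.17, 0 and 0.488 CPM in WAT, a difference of 13.97 ± 0.20 (adjusted p = 1.95e-16). Ttr (transthyretin, a carrier of thyroid hormone and of retinol-binding protein) was at 18838 ± 1495 CPM in liver and 0.574 ± 0.733 CPM in WAT. Mug1, an alpha-macroglobulin family protease inhibitor, had no read in any WAT library, and against a floor of 3 reads over the 5 libraries it was at least 9972-fold higher in liver. Serpina1b and Serpina1d belong to a cluster of near-identical genes, so that reads could be divided among its members by the counting.

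The 12 largest differences towards WAT included those of Cfd, Cidec, Aoc3, Fabp4, Tenm4, Chst1, Trarg1, Nnat, Cav1, Slc2a4 and Plin4. Cfd encodes adipsin, a serine protease of the complement cascade that fat cells secrete. It was at 28374, 10429, 15758, 18477 and 23916 CPM in WAT and had 3 reads over the 5 livers, which gave a ratio of pooled reads of 196490 (95% Poisson interval 67235 to 952790, counting error only). Fabp4, the fatty acid binding protein of fat cells, was at 6000.5, 2728, 3288, 4532 and 5538 CPM in WAT and at 6.003, 12.03, 4.99, 7.52 and 11.6 CPM in liver (-8.88 ± 0.26, adjusted p = 3.98e-12). Trarg1, which acts in the traffic of the insulin-responsive glucose transporter, and that transporter itself, Slc2a4, were at 391 and 307 CPM in WAT and at 0.0944 and 0.485 CPM in liver. Plin4, a lipid droplet coat protein, was at 904, 859.8, 1450.3, 757 and 383 CPM in WAT and 0.439, 3.95, 12.6, 1.97 and 1.13 CPM in the livers. Nnat (neuronatin) was uneven among the WAT libraries, from 58.1 CPM in mouse 658 to 1143 CPM in mouse 609.

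**Figure D2:**
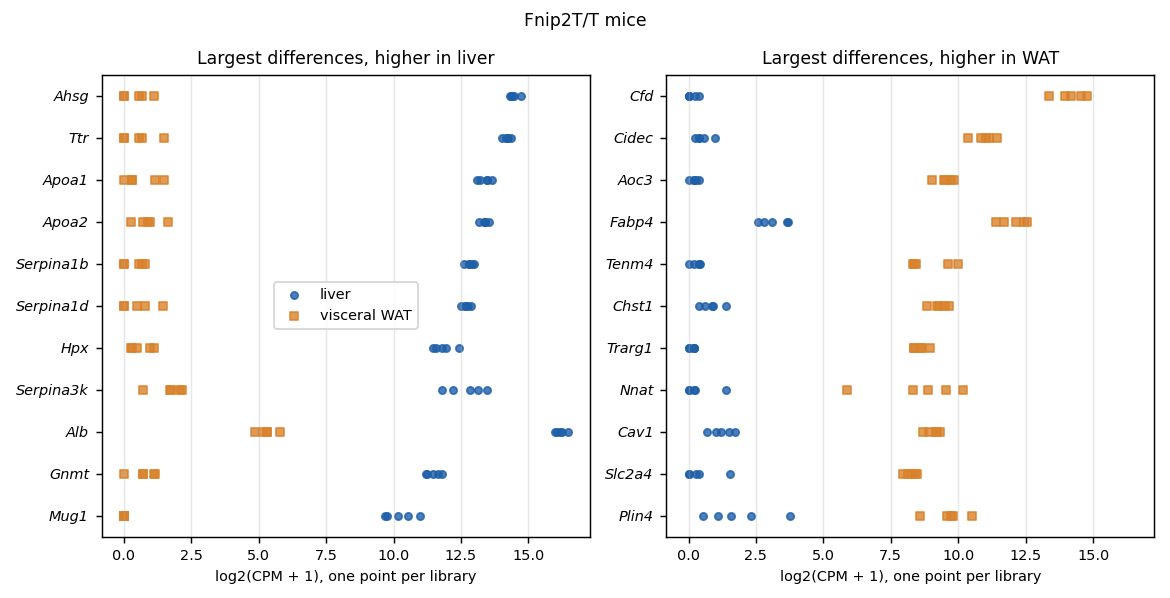
Level of 11 of the 12 genes with the largest difference in each direction, as log2(CPM + 1) with 1 point per library (blue circles, 5 livers; orange squares, 5 WAT libraries). The tissues do not overlap for any of the genes, which their choice required, and Nnat runs from 58.1 to 1143 CPM in WAT.

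Plasma proteins were called higher in liver in 23 of the 23 that could be tested, against 20.7% of all genes tested, with a median difference of 8.50. A further 12 of the 35 on the list had an entry in the liver table only. The tested members summed to 17.7% ± 1.16 of the shared reads in liver and to 0.367% ± 0.0447 in WAT (SD, n = 5). Rbp4 and Hp had the smallest differences of the list. Rbp4, which carries retinol, was at 3627 ± 607 CPM in liver and 1038 ± 159.6 CPM in WAT (1.80 ± 0.17). Hp (haptoglobin, which binds free haemoglobin) was at 1799.6 ± 364 and 510.0 ± 146 CPM (1.84 ± 0.20). Trf (transferrin), among the 10 most read genes of liver, was at 15392 ± 1069.6 and 1654 ± 544 CPM (3.28 ± 0.21).

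Coagulation genes were divided between the tissues. Of the 12 tested, 7 were higher in liver and 5 higher in WAT, where the shares over all genes tested were 20.7% and 58.3%. The clotting factors F10, F5 and F7 and the prekallikrein gene Klkb1 were higher in liver by 9.09, 7.91, 7.60 and 8.36. F2, F9, F12 and the fibrinogen chains Fga, Fgb and Fgg were among the 12 with an entry in the liver table only. Thbd (thrombomodulin, on the surface of endothelium) and F13a1 (a subunit of the fibrin-crosslinking factor, made by macrophages) were higher in WAT, by -4.51 ± 0.19 and -5.96 ± 0.24. Vwf (von Willebrand factor) differed by -2.37 ± 0.19 and Plau (urokinase) by -3.17 ± 0.34. Tfpi, an inhibitor of the cascade, was called higher in WAT at -1.36 but not in every scaling.

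Complement genes were mostly higher in liver. Of the 17 tested, 11 were higher in liver and 2 in WAT, against 20.7% and 58.3% of all genes tested. Of these 2, C1qb (-0.45) was called neither in every scaling nor with mice as a block, a fit that compares tissues within the same animal (adjusted p = 0.122). C8a and C8g, subunits of the membrane attack complex, and Masp2, a protease of the lectin pathway, were higher in liver by 7.64, 7.55 and 6.61. C3, on which all complement pathways converge, was at 5443 ± 699.6 CPM in liver and 1047 ± 347 CPM in WAT (2.43 ± 0.21). Adipsin (Cfd) lay far on the other side at -14.03, and the list summed to more reads in WAT (2.12% ± 0.726) than in liver (0.802% ± 0.0868).

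Of 21 genes of lipoprotein assembly and uptake, 14 were higher in liver and 5 in WAT (median 4.24), against 20.7% and 58.3% of all genes tested. Apoa1 and Apoa2, the main proteins of high-density lipoprotein, were at 10742 ± 1734 and 10596 ± 956 CPM in liver and under 1 CPM on average in WAT. Apob, which lipoproteins of hepatic origin are built on, was at 132, 187, 182, 175 and 276 CPM in the livers and had no read in WAT. Against the floor of 3 reads it was at least 1533-fold higher in liver. Apoe was high in both tissues, at 46174 ± 6959 CPM in liver and 2441 ± 349 CPM in WAT (4.24 ± 0.17). Lpl (lipoprotein lipase, which frees fatty acids at the capillary wall) was at 6389, 5935, 8359, 5947 and 3903 CPM in WAT and 26.9, 43.7, 21.7, 23.6 and 138 CPM in the livers (-7.23 ± 0.46, adjusted p = 6.28e-08). Mouse 659 had the highest Lpl of the livers and still did not overlap with WAT. Gpihbp1, which anchors the lipase to endothelium, and Vldlr, a receptor of triglyceride-rich particles, were also higher in WAT (-2.07 ± 0.16 and -2.86 ± 0.27). Angptl4, an inhibitor of the lipase, was higher in WAT by -3.14 ± 0.84 although the highest liver, that of mouse 657 at 189 CPM, overlapped with WAT.

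Genes of glucose metabolism were divided between the tissues. Of 29 tested, 18 were higher in WAT and 9 in liver, where 58.3% and 20.7% of all genes tested were called in these directions, and the median difference was -1.81 against -0.65 for all genes. The genes higher in liver included those of fructose breakdown and glucose production. Khk, which phosphorylates fructose, and Fbp1, an enzyme of gluconeogenesis, differed by 4.18 ± 0.16 and 8.13 ± 0.41. G6pc, which releases free glucose, and Pklr, the liver form of pyruvate kinase, had an entry in the liver table only. Genes of glycolysis were among those higher in WAT: Hk2 (hexokinase 2) by -4.93 ± 0.28, Pfkp (phosphofructokinase) by -4.74 ± 0.26, Aldoa (aldolase A) by -4.81 ± 0.15 and Pkm (pyruvate kinase M) by -3.63 ± 0.24. Pcx, which replenishes oxaloacetate and feeds both glucose and fatty acid production, was at 132 ± 27.2 CPM in liver and 934 ± 127 CPM in WAT (-2.82 ± 0.16). Pck1, a gene of gluconeogenesis in liver and of glycerol synthesis in fat, was at 163, 326, 484, 224 and 391 CPM in the livers and at 290.4, 24.6, 64.1, 106 and 292 CPM in WAT. The tissues overlapped and Pck1 was not called on the CPM scale (1.45 ± 0.67, adjusted p = 0.0728), but it was under TMM factors (2.12, adjusted p = 0.0132).

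Amino acid breakdown and the urea cycle were higher in liver for 23 of 29 genes, against 20.7% of all genes tested. The median difference was 4.90, and 15 more genes had an entry in the liver table only, among them Cps1 and Otc. Arg1, which forms urea, was at 625, 524, 605, 746 and 1021 CPM in the livers and at 0.407, 0.215, 0.468, 0.706 and 0.163 CPM in WAT. Ass1 and Asl, the steps before it, differed by 8.88 ± 0.25 and 5.10 ± 0.18. Gnmt and Bhmt, which handle methyl groups, differed by 10.73 ± 0.20 and 10.15 ± 0.20, and Hpd (tyrosine breakdown) by 9.66 ± 0.20. The genes higher in WAT in every scaling included Mat2a (-1.50 ± 0.19) and Bcat2, the mitochondrial enzyme that starts the breakdown of branched-chain amino acids (-1.43 ± 0.23). Glul (glutamine synthetase) was at 891 ± 282 CPM in liver and 872 ± 259 CPM in WAT and was not called on the CPM scale (0.01), while TMM factors gave 0.69 (adjusted p = 0.0341).

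Bile acid genes were higher in liver for 13 of 14 tested, against 20.7% of all genes tested. A further 13, including Cyp7a1 (the rate-limiting enzyme), Slc10a1 and Abcb11, had an entry in the liver table only. Slc27a5, which activates bile acids before conjugation, was at 739, 726, 660.3, 756 and 564 CPM in the livers with no read in WAT, at least 5572-fold higher against the floor of 3 reads. Cyp8b1, Abcc2 and Slco1a4 followed with differences of 7.51, 7.02 and 6.98. Klb, a co-receptor of FGF hormones that fat also uses, was the gene on the other side (-1.39 ± 0.14, 14.2 CPM in liver and 38.9 CPM in WAT).

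Xenobiotic metabolism was mostly higher in liver. Of 39 tested genes, 26 were higher in liver, 5 in WAT and 8 were not called, with a median difference of 1.93. The shares over all genes tested were 20.7% higher in liver and 58.3% in WAT. A further 28 members had an entry in the liver table only. The cytochromes P450 Cyp2d26, Cyp2j5 and Cyp4a10 were higher in liver by 9.69, 8.60 and 8.53. The cytochrome Cyp2e1 was at 1166, 2105, 1612, 1973 and 676 CPM in the livers and at 680.1, 144, 121, 396 and 262 CPM in WAT. The highest WAT library, from mouse 607, overlapped with the livers, and the difference of 2.41 ± 0.49 was called (adjusted p = 9.43e-04). Of the 5 genes called higher in WAT, Fmo2 (-1.48 ± 0.22) and Gstm5 (-1.66 ± 0.16) kept that call in every scaling. Members of the Cyp2, Ces1, Ugt2b and Gstm families are similar in sequence, and how the counting divided their reads is not known.

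Fatty acid oxidation was mostly higher in liver. Of 33 genes of oxidation and ketone bodies, 20 were higher in liver, 6 in WAT and 7 were not called (median 1.29). Over all genes tested, 20.7% were called higher in liver and 58.3% in WAT. Oxct1, which tissues other than liver use to consume ketone bodies, was at 8.35, 10.9, 9.38, 7.70 and 16.3 CPM in the livers and 702, 863, 1008, 572 and 499 CPM in WAT (-5.98 ± 0.22), and it was the gene of the list with the largest difference towards WAT. Bdh1, an enzyme that makes the ketone body hydroxybutyrate, differed by 5.95 ± 0.49. Among the enzymes of mitochondrial oxidation, Acadl, Acads, Hadha and Cpt2 differed by 0.04, -0.10, 0.17 and -0.26 and were not called on the CPM scale, while other enzymes of the list were called in either direction. Relative to the median of all genes these 4 lay towards liver, and under TMM factors they were called higher there at 0.72, 0.58, 0.84 and 0.41. Ppara, a nuclear receptor that drives these genes, was at 80.9 ± 16.02 CPM in liver and 15.7 ± 6.67 CPM in WAT (2.37 ± 0.26).

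Of 20 genes of fatty acid synthesis, 11 were higher in WAT, 4 in liver and 5 were not called (median -2.14). These counts were close to the shares of 58.3% and 20.7% over all genes tested, and single genes differed more. Fasn (fatty acid synthase) was at 12175, 14321, 16056, 11766 and 21114 CPM in WAT and 2484, 616, 616, 887 and 1005 CPM in the livers (-3.93 ± 0.34, adjusted p = 1.88e-07). Acaca, Acly and Me1, which supply its substrates, differed by -4.26 ± 0.21, -3.16 ± 0.38 and -3.93 ± 0.38. The list held 5.66% ± 0.974 of the shared reads in WAT and 0.861% ± 0.363 in liver. The genes higher in liver in every scaling were Fads2, Fads1 and Elovl5, which desaturate and elongate polyunsaturated fatty acids (3.97 ± 0.28, 2.58 ± 0.13 and 2.73 ± 0.23). Srebf1, a transcription factor of these genes, and Acacb overlapped between the tissues and were not called, at 2.05 (adjusted p = 0.0593) and -0.84 (adjusted p = 0.0734), though Srebf1 was called higher in liver under TMM factors (2.66, adjusted p = 0.0165). Acacb was called higher in WAT with mice as a block (-1.03, adjusted p = 0.0273) and without the WAT of mouse 609 (-1.07, adjusted p = 0.0306). Thrsp, a lipogenic gene that responds to thyroid hormone and diet, was at 4695, 4604, 3061, 5679.8 and 6935 CPM in WAT and 1154, 105, 97.2, 306 and 214 CPM in the livers, where mouse 607 was highest.

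Of 40 genes of triglyceride storage and lipolysis, 26 were higher in WAT and 11 in liver (median -1.55), where the shares over all genes tested were 58.3% and 20.7%. The lipases of the 3 successive steps, Pnpla2, Lipe and Mgll, were at 1304, 1837 and 3456 CPM in WAT and at 52.9, 17.3 and 258 CPM in liver, with differences of -4.60 ± 0.16, -6.66 ± 0.13 and -3.76 ± 0.23. Dgat1 and Dgat2, which both close the triglyceride molecule, differed unequally, by -3.21 ± 0.13 and -1.64 ± 0.20. Cd36, a fatty acid receptor, was at 21.1 ± 4.11 CPM in liver and 1207 ± 288 CPM in WAT (-5.76 ± 0.19). Of the genes higher in liver, Cideb, Aqp9 and Acsl5 had the largest differences beside the transporters Slc27a5 and Slc27a2, at 7.78 ± 0.20, 5.79 ± 0.26 and 3.95 ± 0.20. Plin3, a droplet coat protein, and G0s2, an inhibitor of lipolysis, were not called on the CPM scale (-0.09 and 0.35).

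**Figure D3:**
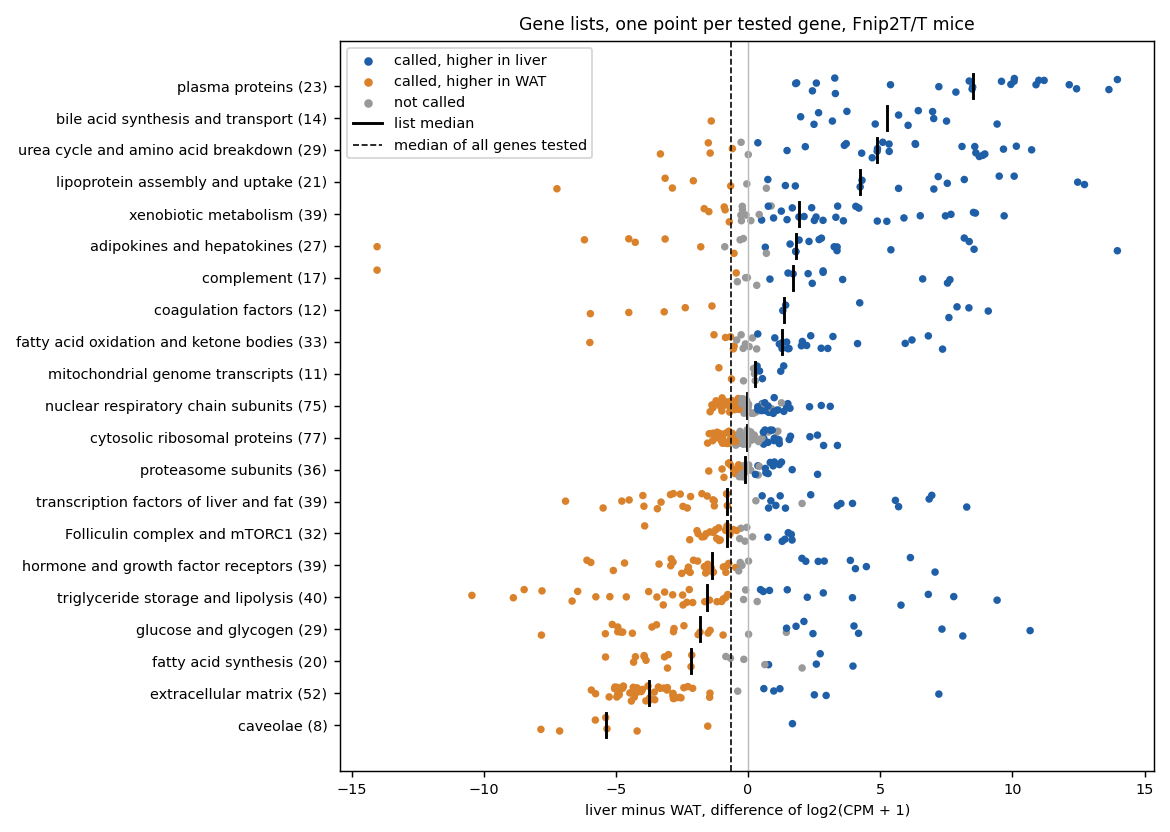
Difference between liver and WAT for every tested member of the 21 pathway lists, on the log2(CPM + 1) scale (positive, higher in liver), with the number tested in parentheses, the list median as a black bar and the median of all genes as a dashed line at -0.65. Lists of liver functions lie to the right and caveolae and matrix to the left, while ribosomal, respiratory chain and proteasome genes gather near 0, where the direction depended on the scaling.

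Of 27 hormones and carriers secreted by liver or fat that could be tested, 16 were higher in liver and 7 in WAT. The shares over all genes tested were 20.7% and 58.3%. Fgl1, Igfbp2 and Serpina12, the last known as the adipokine vaspin, were higher in liver by 8.55 ± 0.28, 5.405 ± 0.62 and 3.37 ± 0.61. Igf1, the main growth factor released by liver, was at 1884 ± 215 CPM in liver and 624 ± 57.6 CPM in WAT (1.59 ± 0.14). Nrg4, a ligand secreted by fat, was at 4.15 ± 2.16 CPM in liver and 92.6 ± 15.3 CPM in WAT (-4.27 ± 0.25), and Igfbp5 and Igfbp6 were higher in WAT by -4.51 ± 0.27 and -6.19 ± 0.22. In the WAT table, whose own total is the base of the following values, Adipoq was at 5156, 3017, 4372, 4656 and 3866 CPM and Lep at 249, 555, 811, 317 and 148, with the highest Lep in mouse 609 and the lowest in mouse 658. The hepcidin genes Hamp and Hamp2 were at 1673 ± 792 and 3021 ± 1849 CPM in the liver table, and because these copies are alike their reads could be divided between them by the counting.

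Of 39 receptors of hormones and growth factors, 26 were higher in WAT and 9 in liver, not far from the shares of 58.3% and 20.7% over all genes tested (median -1.35). The receptors higher in liver included those of glucagon (Gcgr, 6.14 ± 0.25), noradrenaline (Adra1b, 7.07 ± 0.23), vasoactive intestinal peptide (Vipr1, 4.06 ± 0.20) and the ERBB family (Erbb3, 4.48 ± 0.23). Those higher in WAT included Adrb3, through which noradrenaline starts lipolysis, at 511, 300.0, 216, 452 and 325 CPM in WAT and 3.66, 4.28, 4.79, 4.30 and 6.28 CPM in the livers (-5.95 ± 0.21), the natriuretic peptide clearance receptor Npr3 (-6.09 ± 0.63) and the short-chain fatty acid receptor Ffar2 (-5.10 ± 0.28). The growth hormone receptor Ghr was at 309 ± 53.9 CPM in liver and 889 ± 139.9 CPM in WAT (-1.53 ± 0.16). The insulin receptor Insr was at 38.6 and 54.1 CPM (-0.47 ± 0.14). This difference lay near the median of all genes, and under TMM factors it was 0.20 and not called (adjusted p = 0.179). The oestrogen receptor Esr1 and the hepatocyte growth factor receptor Met were not called on the CPM scale (0.02 and -0.23), and TMM factors placed them at 0.68 and 0.44.

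Of 39 transcription factors tested, 15 were higher in liver and 22 in WAT, against 20.7% and 58.3% of all genes tested. The median of -0.81 was near that of all genes and became -0.16 under TMM factors. Onecut2, Creb3l3, Foxa3 and the bile acid receptor Nr1h4 were higher in liver by 8.27 ± 0.19, 6.95 ± 0.24, 6.85 ± 0.16 and 5.70 ± 0.19, and Hnf4a, Foxa2 and Nr1i3 had an entry in the liver table only. Ebf1 and Zfp423, which act in the commitment of fat cells, and the mesenchymal factor Prrx1 were higher in WAT by -6.90 ± 0.26, -4.77 ± 0.27 and -5.48 ± 0.23. Pparg, the master regulator of fat cell formation, was at 29.9, 23.7, 20.6, 21.6 and 31.4 CPM in WAT and 3.07, 2.97, 0.599, 2.68 and 3.86 CPM in the livers (-2.93 ± 0.27, adjusted p = 1.38e-07). The position-specific genes Hoxc6, Hoxc8, Hoxc9 and Hoxc10 had an entry in the WAT table only.

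Caveolae and the extracellular matrix were higher in WAT. Caveolae are small pits of the plasma membrane that cover much of the fat cell surface. Of 8 tested genes, 7 were higher in WAT (median -5.36), against 58.3% of all genes tested. Cav1, their main protein, was at 640.2, 477, 571, 590.2 and 416 CPM in WAT and 1.02, 1.81, 0.599, 2.33 and 1.29 CPM in the livers (-7.84 ± 0.20), and Cavin1 and Ehd2 differed by -5.78 ± 0.26 and -7.13 ± 0.26. Pacsin3, a membrane-bending protein, was the member higher in liver (1.68 ± 0.14). Of 52 matrix genes, 45 were higher in WAT and 6 in liver (median -3.73), against 58.3% and 20.7% of all genes tested. Sparcl1 (a collagen-binding protein), Lox (which crosslinks collagen and elastin), Col6a1 (a chain of the collagen that surrounds fat cells) and Col1a1 (fibrillar collagen) differed by -5.93 ± 0.20, -5.77 ± 0.25, -5.25 ± 0.29 and -4.47 ± 0.33. The members higher in liver were Vtn and Fn1, which liver also releases into plasma (7.22 ± 0.17 and 2.51 ± 0.17), Col18a1 (2.96 ± 0.14), and Ecm1, Emilin1 and Col14a1 with smaller differences.

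Markers of other cells differed between the tissues as well. Their counts stand against the 58.3% of all genes tested that were called higher in WAT and the 20.7% called higher in liver. The 10 markers of blood vessel endothelium were all higher in WAT (median -2.24), for example Pecam1 by -2.66 ± 0.15 and Cdh5 by -2.51 ± 0.16, while 4 of 5 markers of liver sinusoidal endothelium were higher in liver, for example Stab2 by 5.14 ± 0.19 and Dnase1l3 by 5.57 ± 0.24. Of 6 tested markers of Kupffer cells, the resident macrophages of the liver, 4 were higher in liver, for example Cd5l by 6.96 ± 0.21 and Vsig4 by 5.84 ± 0.21, 1 was not called, and Cdh5, which is also on the endothelial list, was higher in WAT. General macrophage markers were near the median of all genes: of 9 tested, 2 were higher in liver, 3 in WAT and 4 were not called, and the median of -0.40 became 0.27 under TMM factors. The retinol-esterifying enzyme Lrat and Reln, of hepatic stellate cells, were higher in liver by 3.43 ± 0.26 and 3.01 ± 0.30. Smooth muscle markers were all higher in WAT (8 of 8, median -5.97), with Myh11 at 339, 552, 96.5, 202 and 351 CPM in WAT. Mesothelial markers were higher in WAT for 6 of 6 (median -3.90). Of the fibroblast and preadipocyte markers 7 of 8 were higher in WAT, and Dpp4, a surface peptidase that hepatocytes also make, was higher in liver (3.04 ± 0.32). The immunoglobulin genes Igkc and Ighm were higher in WAT by -3.23 ± 0.36 and -4.17 ± 0.27, as were 4 of 4 Schwann cell markers (median -3.56). The neutrophil genes S100a8 and S100a9 were higher in liver by 1.84 ± 0.61 and 2.10 ± 0.43. Haemoglobin genes were high in both tissues, and the erythroid median of -0.17 became 0.48 under TMM factors.

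Of the genes of the folliculin complex, Fnip2 and Flcn lay above the upper quartile of the differences of all genes tested, 0.22, and Fnip1 just below it. The median of all genes was -0.65. Fnip2 was at 20.8, 19.8, 20.1, 16.1 and 8.53 CPM in the livers of mice 607, 608, 657, 658 and 659 and at 8.35, 5.82, 3.04, 10.1 and 5.20 CPM in the WAT of mice 607, 608, 609, 657 and 658. The liver of mouse 659 lay within the range of WAT, and the difference of 1.29 ± 0.29 was called (adjusted p = 9.02e-04), that is, the mean was 2.62 times that of WAT. Flcn (folliculin) was at 11.1, 17.5, 11.97, 9.31 and 9.98 CPM in the livers and 11.6, 4.09, 4.68, 6.35 and 8.13 CPM in WAT, which overlapped, with a difference of 0.75 ± 0.25 (adjusted p = 0.0141). Fnip1 was at 36.7, 59.97, 47.5, 37.4 and 36.7 CPM in the livers and 65.6, 34.5, 21.5, 41.6 and 38.4 CPM in WAT and was not called (0.17 ± 0.24, adjusted p = 0.526). Under TMM factors Fnip1 was called higher in liver at 0.83 (adjusted p = 0.0035), while Fnip2 and Flcn kept their direction and call in each of the 7 scalings. With mice as a block Fnip2 was called at an adjusted p of 0.000175 and Flcn was not, at 0.70 (adjusted p = 0.0569). With so few reads per library, near 10 CPM, the levels of Fnip2 and Flcn carried counting error in addition to the spread between mice.

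Over the whole list of folliculin complex and mTORC1 genes, 6 of 32 were higher in liver and 21 in WAT. These counts were not far from the shares of 20.7% and 58.3% over all genes tested. The call towards WAT held in every scaling for 12 of the 32, and for 35.1% of all genes tested. The median of -0.81 was close to the -0.65 of all genes. Rraga, a Rag GTPase, Ulk1, a kinase that starts autophagy, Prkaa2, a catalytic subunit of AMPK, and Eif4ebp2, a translation repressor, were higher in liver by 1.67 ± 0.33, 1.64 ± 0.37, 1.52 ± 0.27 and 1.40 ± 0.16. Related genes lay on the other side. Rragc, the Rag that folliculin acts on, Prkaa1, the other catalytic subunit of AMPK, and Eif4ebp1 were higher in WAT by -1.44 ± 0.21, -1.66 ± 0.18 and -1.93 ± 0.16. Tfe3 and Mitf, factors of lysosomal genes that the complex controls, were higher in WAT by -1.74 ± 0.16 and -2.21 ± 0.21. Mtor itself was at 23.6 CPM in liver and 52.7 CPM in WAT (-1.11 ± 0.20) and Rptor, the scaffold of mTORC1, at 13.4 and 24.4 CPM (-0.83 ± 0.16), a call that Rptor lost under TMM factors (-0.19, adjusted p = 0.282). Deptor, an inhibitor of mTOR, was at 482 ± 90.7 CPM in liver and 525 ± 119 CPM in WAT and was not called on the CPM scale (-0.12), while TMM factors gave 0.56 (adjusted p = 0.0212).

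**Figure D4:**
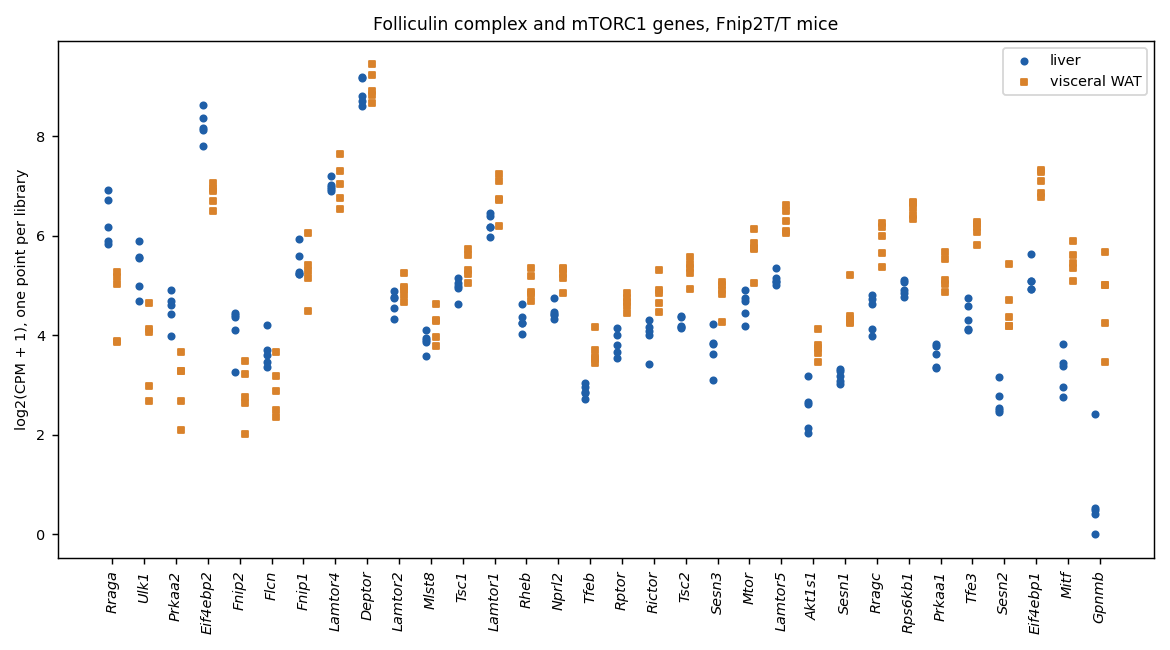
Level of the 32 tested genes of the folliculin complex and mTORC1 list as log2(CPM + 1), with 1 point per library (blue circles, 5 livers; orange squares, 5 WAT libraries), ordered from the largest difference towards liver to the largest towards WAT. Fnip2 and Flcn lie among the genes higher in liver with some overlap, Fnip1 overlaps, and Gpnmb is furthest towards WAT at -3.91.

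Genes of general cell machinery had small differences whose direction depended on the scaling. Of 77 ribosomal protein genes, 18 were higher in liver, 28 in WAT and 31 were not called, and the median of -0.05 ranged from -0.18 to 0.61 over the scalings. For 75 nuclear genes of the respiratory chain these counts were 24, 26 and 25, with medians from -0.18 to 0.64. For 36 proteasome genes they were 12, 13 and 11, with medians from -0.25 to 0.55. Over all genes tested, 20.7% were called higher in liver and 58.3% in WAT. All 3 medians lay above that of all genes on the CPM scale. Single members had larger differences that kept their direction in every scaling. Rps2 and Rps16 were higher in liver by 3.38 ± 0.74 and 2.63 ± 0.66, and Atp5g1, a subunit of ATP synthase, by 3.11 ± 0.16, while Rpl6 and Ndufs3 were higher in WAT by -1.53 ± 0.16 and -1.44 ± 0.17. Ribosomal protein genes have many processed copies in the genome, so that reads of a 3′ end can be lost or moved between copies in the counting.

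The 11 tested protein-coding genes of the mitochondrial genome held 14.1% ± 1.27 of the shared reads in liver and 9.72% ± 2.75 in WAT (SD, n = 5), with medians from -0.02 to 0.96 over the scalings. The libraries overlapped, from 12.3% to 15.7% in liver and from 7.71% to 14.4% in WAT. Of the 11, 5 were higher in liver, 2 in WAT and 4 were not called, against 20.7% and 58.3% of all genes tested. In every scaling 2 were called higher in liver and 0 in WAT, against 18.6% and 35.1%. mt-Cytb was at 25414, 29170, 18551, 31155 and 26578 CPM in the livers and 12809, 6252, 6078, 11114 and 19537 CPM in WAT, with an overlap through the WAT of mouse 658 (1.35 ± 0.30, adjusted p = 7.75e-04). mt-Nd4 was at 76100 ± 7869.6 CPM in liver and 53926 ± 17556 CPM in WAT, a called difference of 0.54 ± 0.22 that was not called in every scaling, nor with mice as a block (adjusted p = 0.140), nor without the WAT of mouse 609 (adjusted p = 0.0610).

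Pairs of related genes with a similar role, 27 in all and chosen by hand, were set side by side. The first gene of a pair was taken for liver and the second for fat, although not every gene is particular to that tissue. Both genes could be tested in 16 pairs. In 10 of them the first gene was higher in liver and the second higher in WAT, where 20.7% and 58.3% of all genes tested were called in these directions. Among them were the glucose transporters, with Slc2a2 at 304, 305, 317, 264 and 115 CPM in the livers and 0.407, 0.646, 1.40, 0 and 0.488 CPM in WAT (7.34 ± 0.29), and Slc2a4 at 1.90, 0, 0.200, 0 and 0.322 CPM in the livers and 315, 283, 249, 351 and 338 CPM in WAT (-7.82 ± 0.26). Cideb and Cidec, Slc27a5 and Slc27a1, Ppara and Pparg, Gys2 and Gys1, Fmo5 and Fmo2, and Gstm1 and Gstm2 were among those that did likewise, although Gstm2 (-0.71) was called neither in every scaling nor with mice as a block (adjusted p = 0.0897). In 3 pairs both forms were higher in WAT: Pfkl (-2.43 ± 0.17) with Pfkp, Scd1 (-3.01 ± 0.31) with Scd2 (-5.39 ± 0.46), and the adiponectin receptors Adipor2 (-0.84 ± 0.16) and Adipor1 (-0.73 ± 0.12). The calls of the adiponectin receptors were lost under TMM factors, at -0.16 (adjusted p = 0.425) and -0.06 (adjusted p = 0.652). In the other 3 pairs, Pygl with Pygb, Acacb with Acaca and Aox3 with Aox1, 1 form was not called. Pygl, the liver glycogen phosphorylase, was at 889 ± 318 CPM in liver and 876 ± 306 CPM in WAT (0.02 ± 0.24, adjusted p = 0.938) while Pygb differed by -4.93 ± 0.29, and under TMM factors Pygl was called higher in liver (0.70, adjusted p = 0.0273). Gys2, the liver glycogen synthase, was at 41.1 ± 8.47 and 14.3 ± 2.61 CPM (1.46 ± 0.17), and Gys1 at 3.89 ± 1.44 and 199 ± 22.7 CPM (-5.397 ± 0.19). Of the remaining pairs, 6 had the first gene in the liver table only, as with Fabp1 at 3994 ± 1473 CPM there. In 2 the second gene had an entry in the WAT table only. Bcat1, the first gene of its pair, also had an entry in the WAT table only, and its partner Bcat2 was higher in WAT. Arg2, paired with Arg1, fell below the filter, and Cpt1b, paired with Cpt1a, had no usable entry.

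**Figure D5:**
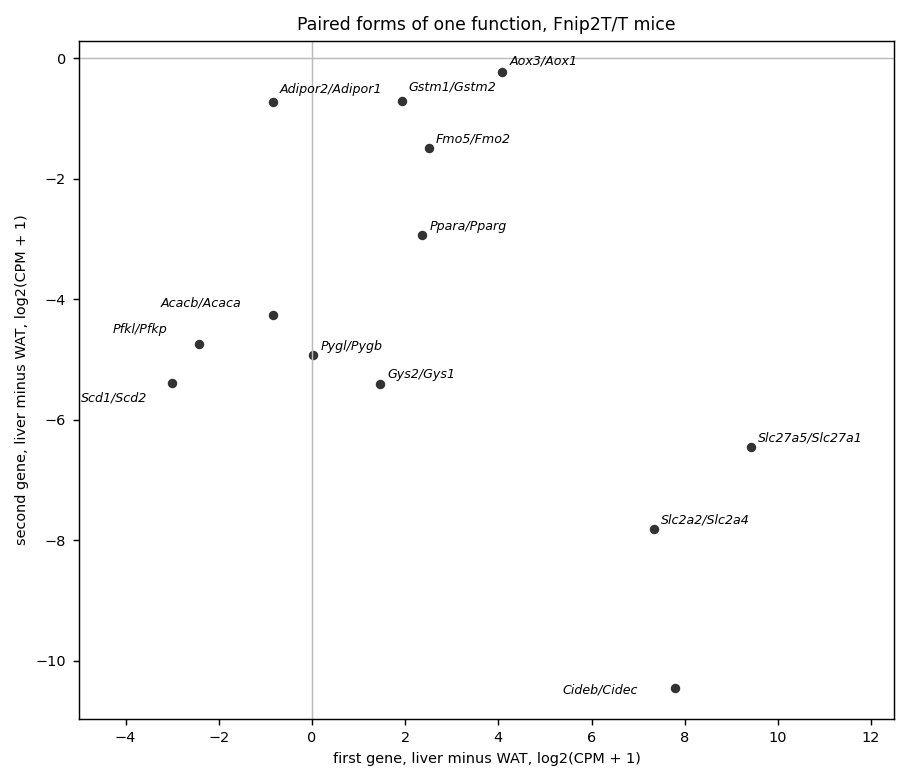
Difference of the first gene (horizontal axis) and of the second gene (vertical axis) for 13 of the 16 pairs in which both could be tested, liver minus WAT on the log2(CPM + 1) scale. The 7 plotted pairs with opposite calls lie at the lower right (Gstm2 not in every scaling), Pygl lies at 0.02, and Pfkl and Scd1 lie to the left of 0.

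Genes listed in 1 table were not compared, since the other table gives no reads for them. The lowest total of any gene in the liver table was 10 reads over its libraries, so that genes absent from it may have had fewer. They took 10.1% of the reads of the liver libraries and 1.97% of those of the WAT libraries on average. Of the 1329 in the liver table, 136 reached a mean of 100 CPM, led by Fgb (7861 ± 1996), Serpina1c (7271 ± 1202), Fabp1 and Mat1a (3291 ± 522). Of the 3512 in the WAT table, 19 did, led by Adipoq (4213 ± 816), Retn (3418 ± 964) and Plin1 (818 ± 153). The lists of liver functions lost most members in this way, so that their counts and medians describe the members with an entry in both tables and not the whole lists.

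The 5 libraries of a tissue were not equally alike. Spearman correlations, which are across genes, lay between 0.961 and 0.980 within liver, between 0.893 and 0.966 within WAT and between 0.381 and 0.528 across the tissues. The SD of log2(CPM + 1) was larger in WAT for 61.3% of the genes tested, with medians of 0.291 in WAT and 0.250 in liver. Among genes of at least 100 CPM, the metallothioneins Mt2 and Mt1, which bind zinc and copper, varied most among the livers with Thrsp, Slc25a47, Cyp17a1, Serpina1e, Elovl6 and Cyp4a10. Mt2 was at 209, 125, 163, 23.1 and 674 CPM and Mt1 at 660.3, 427, 618, 225 and 2351 CPM, both lowest in the liver of mouse 658 and highest in that of mouse 659. In WAT the most variable were Gm28437, Txnip, Nnat, Npr3, Pck1, Gsta4, Sncg and Tmsb4x. Txnip, which responds to glucose, was at 148, 21.3, 18.7, 83.01 and 269 CPM and Npr3 at 87.4, 361, 519, 178 and 36.9 CPM in WAT, so that mouse 658 had the most Txnip and the least Npr3, and mouse 609 the reverse. Txnip and Gsta4 overlapped between the tissues and were not called (-1.05 ± 0.70 and -0.25 ± 0.58).

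The tissue difference was also set against that of Fnip2C/C mice, whose libraries are separate from those described so far. Of the 694 genes with large differences towards liver, 690 were called in the same direction in Fnip2C/C mice, as were 1453 of the 1473 towards WAT. The size of the difference depended on genotype at an adjusted p under 0.05 for 2797 genes (30.5%) in the fit of all 19 libraries, and for 1281 when mice were entered as a block. In 1841 of the 2797 the difference lay further towards WAT in Fnip2T/T mice, and in 956 further towards liver. With the block the split was 1107 towards WAT and 174 towards liver. It was more even under TMM factors, with 1646 towards WAT and 1217 towards liver, and in edgeR, with 1642 and 1241. The split therefore depended on the scaling as well. For Fnip2 the tissue difference was 2.19 in Fnip2C/C mice and the interaction of -0.90 was not called (adjusted p = 0.081). It was called without the WAT of Fnip2C/C mouse 593, which held ovary genes (-1.07, adjusted p = 0.0406). Every other library was also left out in turn, and those fits are not reported here for Fnip2. No interaction was called for Fnip1 (-0.28, adjusted p = 0.507) and Flcn (-0.76, adjusted p = 0.0969). Slc2a4, Cidec, Cfd, Ahsg and Ttr were not called either, at -0.62, -0.14, -0.01, 0.01 and -0.27. Trarg1 was at 391 CPM in Fnip2T/T WAT and 145 CPM in Fnip2C/C WAT, and its interaction was -1.93 (adjusted p = 4.41e-04, 0.00927 with the block). mt-Cytb was at 11158 and 2344 CPM in WAT and 26173 and 25071 CPM in liver (Fnip2T/T and Fnip2C/C in that order), with an interaction of -2.11 (adjusted p = 5.60e-04, 0.0168 with the block). With the block the interactions of Cav1 (-1.36, adjusted p = 0.00292), Fabp4 (-1.30, 0.0345) and Adipor2 (-1.20, 0.00217) were no longer called, at adjusted p of 0.0754, 0.337 and 0.138. That of Fabp4 was also lost without the WAT of mouse 593 (adjusted p = 0.0764).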

How the data were processed

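RNA of 19 mouse-tissue samples was sequenced at the 3′ end (QuantSeq FWD) in 4 runs each, which the deposited tables combine into 1 column per sample. By the submitters' processing notes, reads were checked with FastQC 0.11.9, aligned to GRCm39 with HISAT2, handled with SAMtools 1.12 and counted per gene with HTSeq. The authors then divided the counts of each tissue by DESeq2 size factors, so that the deposited signal values are normalized counts, with a separate table per tissue. All values were whole multiples of the step of their library (100% within 1e-06), and whole reads were recovered from these steps. The WAT table holds 1 further column that matches no label and was not used.

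Reads were rescaled to CPM over the 15439 gene symbols found once in each table, which cancels the size factors. Genes with a mean of at least 10 CPM in either Fnip2T/T tissue were tested with limma 3.58.1 in R 4.3.3 (trend and robust empirical Bayes on log2(CPM + 1), 5 livers against 5 WAT libraries, Benjamini-Hochberg adjustment over 9163 genes). The genotype dependence was the interaction term in a fit of all 19 libraries. The test was also run on simulated counts of 9163 genes, with 100 genes changed 2-fold and 100 changed 4-fold, equally in both directions. All other genes had the same mean in both tissues, and the spread was that of the WAT libraries. It called 51% of genes changed 2-fold and 97% of those changed 4-fold, with 5 false calls. In the data most genes differed and the split depended on the scaling, so these rates describe the simulated setting only. The libraries of a tissue differed by more than counting noise. Nothing gives the mice's litters, and p-values measure the spread between these animals. Livers and WAT of the same mouse are paired by animal, and their deviations from the tissue means correlated at -0.14 (607), -0.25 (608), -0.11 (657) and 0.18 (658) across genes.

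Alternatives were other scalings (TMM, DESeq2 size factors, quantile normalization, the deposited values, totals without the 50 most read genes or over all genes), other pseudocounts and filters, edgeR 4.0.16 and DESeq2 1.42.0 on the recovered reads, mice as a block, and each library left out. Scaling over all genes of each table, pairs of mice, and leaving out the WAT of mice 609 and 658 were added after the data were seen. Members and gene lists were chosen with earlier results of these data known. The genes named were Fnip2, Fnip1 and Flcn, the 12 largest separate differences each way at 100 CPM or more, the 10 most read genes of each tissue, the 4 largest called differences each way of each list with members that were not called or went against it, the gene pairs, the cell type markers, the 8 most variable genes of each tissue and the 10 most read genes listed in 1 table. Named outside this rule, after their values were seen, were Acly, Acsl5, Apob, Asl, Ass1, C3, Cd36, Dgat1, Dgat2, Ghr, Hp, Igf1, Igfbp2, Insr, Me1, Mgll, Mtor, Pcx, Pnpla2, Prkaa1, Rbp4, Rptor, Rragc, Serpina12, Tfe3, Tfpi, Hamp and the genes given as examples of members listed in 1 table. Some genes that this rule names are not reported here.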

Additional observations from a re-analysis of the deposited data

Results flagged for a closer look

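Among the 209 tested genes named in the text, 39 of 415 sets of 5 libraries had 1 library that stood apart. Its gap to the nearest other library exceeded 0.71 of the whole range in CPM (Dixon's criterion at 95%). Chance gives about 1 in 20 for normally distributed values of genes chosen without regard to their spread. The named genes include the most variable genes of each tissue, picked from these same libraries, and CPM was not log-transformed here. An excess over 1 in 20 therefore cannot be read from the 39 sets. Several of these sets consist of single reads in 1 library.

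Acacb at 237, Fasn at 2484, Khk at 445, Pygl at 1449.5, Slc2a4 at 1.90 and Thrsp at 1154 CPM stood apart as the highest values in the liver of mouse 607. Abcc2 at 141 CPM stood apart as the lowest value in the liver of mouse 607. Eif4ebp1 at 48.9 and Erbb3 at 46.96 CPM stood apart as the highest values in the liver of mouse 608. Angptl4 at 189, Apoe at 58381, Plin4 at 12.6 and Slc25a47 at 596 CPM stood apart as the highest values in the liver of mouse 657. Cideb at 183 and Fads2 at 158 CPM stood apart as the lowest values in the liver of mouse 657. Bcat2 at 6.09 CPM stood apart as the lowest value in the liver of mouse 658. Gm28437 at 279.9, Gpnmb at 4.35, Lpl at 138, Mt1 at 2351, Mt2 at 674, Nnat at 1.61 and Scd2 at 18.5 CPM stood apart as the highest values in the liver of mouse 659. Slc2a2 at 115 CPM stood apart as the lowest value in the liver of mouse 659. Nr1h4 at 0.407 CPM stood apart as the highest value in the WAT of mouse 607. Gm28437 at 553 and Gys1 at 239 CPM stood apart as the highest values in the WAT of mouse 608. Cyp2d26 at 0.468, Cyp2j5 at 1.64 and S100a8 at 13.8 CPM stood apart as the highest values in the WAT of mouse 609. Adra1b at 2.59, Bhmt at 0.235 and Pecam1 at 231 CPM stood apart as the highest values in the WAT of mouse 657. Cyp4a10 at 0.976, Foxa3 at 0.163, Pfkl at 302, Pygl at 1403 and Serpina1e at 0.325 CPM stood apart as the highest values in the WAT of mouse 658. Lipe at 1515 CPM stood apart as the lowest value in the WAT of mouse 658.

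For 48 of the 209 tested genes named the tissue difference depended on genotype in limma's fit of all 19 libraries, at an adjusted p under 0.05 for the interaction, against 30.5% of all genes tested. The log2 values that follow are liver minus WAT in Fnip2T/T minus the same in Fnip2C/C, and 40 of the 48 were negative. Over all genes tested, 1841 of the 2797 called were negative, and under TMM factors 1646 were negative and 1217 positive. The named genes were chosen in part by their tissue differences in these libraries, so no lean of their own can be read from the 40. The 11 that were also called with mice as a block were Gys2 -2.19, mt-Cytb -2.11, Pnpla2 -2.06, Trarg1 -1.93, Ffar2 -1.86, Rraga -1.73, Alb -1.62, Hk2 -1.28, Acsl5 -1.24, Fads1 -1.13 and Col18a1 -1.07. The negative values called without the block only were Rps2 -3.01, G0s2 -2.996, Cyp2e1 -2.18, Ulk1 -1.84, Sncg -1.75, mt-Nd4 -1.53, Cav1 -1.36, Fabp4 -1.30, Prkaa1 -1.25, Pecam1 -1.23, Lipe -1.23, Ighm -1.20, Glul -1.20, Adipor2 -1.20, Ghr -1.17, Car3 -1.13, Dgat2 -1.10, Rbp4 -1.06, Aoc3 -0.93, Esr1 -0.89, Atp5g1 -0.86, Eif4ebp1 -0.85, Apoe -0.82, Cpt2 -0.81, Igf1 -0.76, Klb -0.74, Cdh5 -0.72, Vtn -0.65 and Pacsin3 -0.56. The positive ones were Hadha 0.71, Ndufs3 0.73, F7 0.73, Acads 0.83, Gys1 0.83, C3 0.89, Rpl6 0.93 and Igfbp6 1.30. Without the WAT of Fnip2C/C mouse 593, 35 of the 48 were called.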

How the results depend on the processing

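The number of called genes and its split were recomputed under each alternative. With a mean of at least 50 CPM in either tissue, 3118 genes were called (990 higher in liver and 2128 in WAT, with 451 and 679 at a difference of at least 2), and with at least 10 CPM in both tissues 4212 (1142 and 3070, with 231 and 370), where fewer genes were tested. TMM factors gave 3402 genes higher in liver and 3419 in WAT (1044 and 928 at a difference of at least 2), DESeq2 size factors 3427 and 3394 (1048 and 917), edgeR 3343 and 3445 (1058 large towards liver) and DESeq2 3412 and 3411 (1074 large towards liver). Quantile normalization gave 2983 genes higher in liver and 911 large differences towards WAT. A pseudocount of 10 CPM left 396 and 555 large differences. The total of called genes stayed within 1.5 times the reported one except under the 2 filters. Leaving out 1 library at a time gave 6974 to 7222 called genes, 1772 to 1953 higher in liver, 5185 to 5397 higher in WAT, and 656 to 717 and 1433 to 1526 large differences. The interaction was called for 2308 to 3122 genes with 1 library left out and for 1281 with mice as a replicate block. With this replicate block the tissue difference was called for 6860 genes (1679 higher in liver and 5181 in WAT). Within mice 607 and 608 alone 5552 genes were called and within mice 657 and 658 6183, both with the spread of 2 livers and 2 WAT libraries.

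Genes close to the median of all genes changed direction. Under TMM factors, DESeq2 size factors, edgeR and DESeq2 in this order, the difference became 0.23, 0.24, 0.21 and 0.23 for C1qb, 0.41, 0.42, 0.42 and 0.44 for Cpt2, 0.56, 0.57, 0.54 and 0.56 for Deptor, 0.20, 0.21, 0.19 and 0.21 for Insr, 0.44, 0.45, 0.42 and 0.44 for Met, and 0.57, 0.58, 0.59 and 0.61 for Plin3. Quantile normalization gave 0.0020 for Insr and 0.42 for Plin3. For Acads the difference became 0.58 under TMM factors and 0.59 under DESeq2 size factors, and for Gstm2 0.0037 in DESeq2. Mice as a block ended the calls of C1qb, Flcn, Gstm2, Mt2, mt-Nd2 and mt-Nd4 and called Acacb, and changed no other call among the 209 tested genes named. Genes of low level, among them Fnip2 and Flcn, are limited by depth, and genes listed in 1 table were not compared.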

Other observations

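Several genes of different functions were lowest in the WAT of mice 608 and 609 and higher in that of mice 607, 657 and 658. They were chosen after their values were seen, and no test was made. In the WAT of mice 607, 608, 609, 657 and 658, the ribosomal protein gene Rps2 was at 30.95, 4.74, 1.87, 11.5 and 55.1 CPM, Rps16 at 37.3, 7.32, 2.57, 26.6 and 38.2 CPM and the lipogenic factor Srebf1 at 33.2, 2.80, 1.17, 24.5 and 40.98 CPM. The Rag GTPase gene Rraga was at 34.8, 13.8, 13.6, 31.5 and 37.4 CPM and the autophagy kinase gene Ulk1 at 24.2, 6.89, 5.38, 16.5 and 15.8 CPM. G0s2, the inhibitor of lipolysis, was at 96.3, 14.4, 6.31, 56.4 and 150.4 CPM and mt-Cytb at 12809, 6252, 6078, 11114 and 19537 CPM. In the livers of mice 607, 608, 657, 658 and 659, Rps2 was at 108, 188, 108, 156 and 129 CPM and Rraga at 56.2, 119.8, 58.3, 104 and 71.02 CPM, and the liver of mouse 608 was the highest for both.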
